A study of Mus musculus with 4 samples.

Results

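The replication-dependent histone genes comprised 63 of the 21887 protein-coding genes that RefSeq's table for GRCm38.p6, which is mm10, places on chromosomes 1 to 19, X and Y. They were chosen by symbol alone, as the linker histone genes H1f1 to H1f6 and the numbered copies H2ac, H2bc, H3c and H4c of the core histones. The symbol rule uses no measured value, but this gene group was picked with earlier results of these data known. They comprised 6 H1, 17 H2A, 16 H2B, 12 H3 and 12 H4 genes. Members at most 250 kb apart on a chromosome were joined, which gave 3 clusters. The chromosome 3 cluster spans 50.3 kb (96219885 to 96270192, mm10) and holds 10 members. The first chromosome 13 cluster spans 328 kb (21715711 to 22043658) and holds 22, and the second spans 404 kb (23531044 to 23934913) and holds 31. No gene of the small histone cluster on chromosome 11 carries a symbol of this form, and its genes are described apart from the members.

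The mark H3K79me2, dimethylation of histone H3 at lysine 79, was mapped by ChIP-seq in double-negative mouse thymocytes at the DN3 stage. They derived from C57BL/6 haematopoietic stem cells cultured on OP9-DL1, stromal cells that display a Notch ligand, in medium that held IL-7 at 2 ng/mL and Flt-3L at 5 ng/mL. In 1 library the cells had received DMSO, the solvent (control), and in the other A939572, a blocker of the oleic acid producing enzyme SCD1 (inhibitor); the sources used here state neither its dose nor the age of the mice, and 2 input libraries were not analysed here. Each library is represented by the broad peaks that the authors called in it, with no read counts, so the depth is unknown, the 2 libraries have no replicate spread, and no difference between them has a p-value.

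A gene counts as marked if 50% or more of its body lies under peaks. Of 10 marker genes of T cell precursors, control peaks marked 6 and inhibitor peaks 9, and of 10 markers of stromal feeder cells, 0 and 1. Over all coding genes the marked shares were 5.47% and 26.1%.

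Replication-dependent histone genes provide the histones that package newly copied DNA. They are short and have no introns, they are transcribed mainly in S phase in nuclear bodies organised by NPAT, and their mRNAs end in a stem-loop bound by SLBP in place of a poly(A) tail. H3K79me2 is set by the methyltransferase DOT1L on the globular part of H3, itself a product of these genes, and it is concentrated downstream of the start of transcribed genes. Core histones form the nucleosome core, whereas H1 binds the DNA between nucleosomes.

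No histone gene was marked in the control list, and 11 were marked in the inhibitor list. The inhibitor share was 17.5% of 63 (95% Wilson interval 10.04 to 28.6), and 26.1% of all protein-coding genes, a share within that interval, were marked. The control share was 0% of 63 (95% Wilson interval up to 5.75), and 5.47% of all protein-coding genes, a share within that interval, were marked. Among protein-coding genes no longer than the longest member, control peaks marked 5.82% and inhibitor peaks 26.2%. Most members are far shorter than that: their median length was 492 bp, and 58 of the 63 have gene models of at most 1 kb. Control peaks marked 0 of these 58 short members and inhibitor peaks 9 (15.5%). Of all 1577 protein-coding genes of at most 1 kb, the 58 members among them, control peaks marked 7.1% and inhibitor peaks 2.85%. The median length of these 1577 genes was 933 bp, against 487.5 bp for the short members. The share of short members marked by inhibitor peaks was thus above that of all coding genes of at most 1 kb. The share of all members was below that of all genes, but the latter lay within the members' interval. Neither difference was tested.

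Control peaks touched 3 members and inhibitor peaks 20, where 55.3% and 51.4% of all coding genes were touched. All 3 members with a control peak (H2bc22, H2bc6 and H2bc4) have gene models over 1 kb, and not 1 base of the 58 short members lay under a control peak. Inhibitor peaks touched 17 of the 58. Among all coding genes of at most 1 kb, control peaks touched 12.1% and inhibitor peaks 3.99%. For 16 members (25.4%) the inhibitor peaks covered 25 or more points more of the body than the control peaks, as they did for 30.1% of all coding genes. The opposite held for 0 members and 3.07% of all coding genes. The median covered percent of the members was 0% in both lists, against 2.24% (control) and 0.446% (inhibitor) over all coding genes.

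After removal of peaks with q above 0.05, control peaks marked 0 members and inhibitor peaks 7, where they marked 1.33% and 19.6% of all coding genes. No coding gene of at most 1 kb, member or not, had a base under a control peak at that q. Inhibitor peaks at that q marked 5 of the 58 short members, and 2.00% of 1298 other coding genes of at most 1 kb with a known start. At that q, 10 members were ahead by 25 points or more under inhibitor peaks (26.3% of all coding genes) and 0 under control peaks (0% of all coding genes). The distance from a member to the nearest control peak at that q ranged from 286386 bp on chromosome 3 to 2683585 bp on chromosome 13. Neighbouring members share peaks: the 11 marked members lay under 6 inhibitor peaks. The intervals cover counting error alone and ignore this sharing. Histone genes of a class are known to be close copies of each other, and the sources used here do not say how reads that match several copies were placed, so a peak over 1 copy may hold reads of another.

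**Figure D1:**
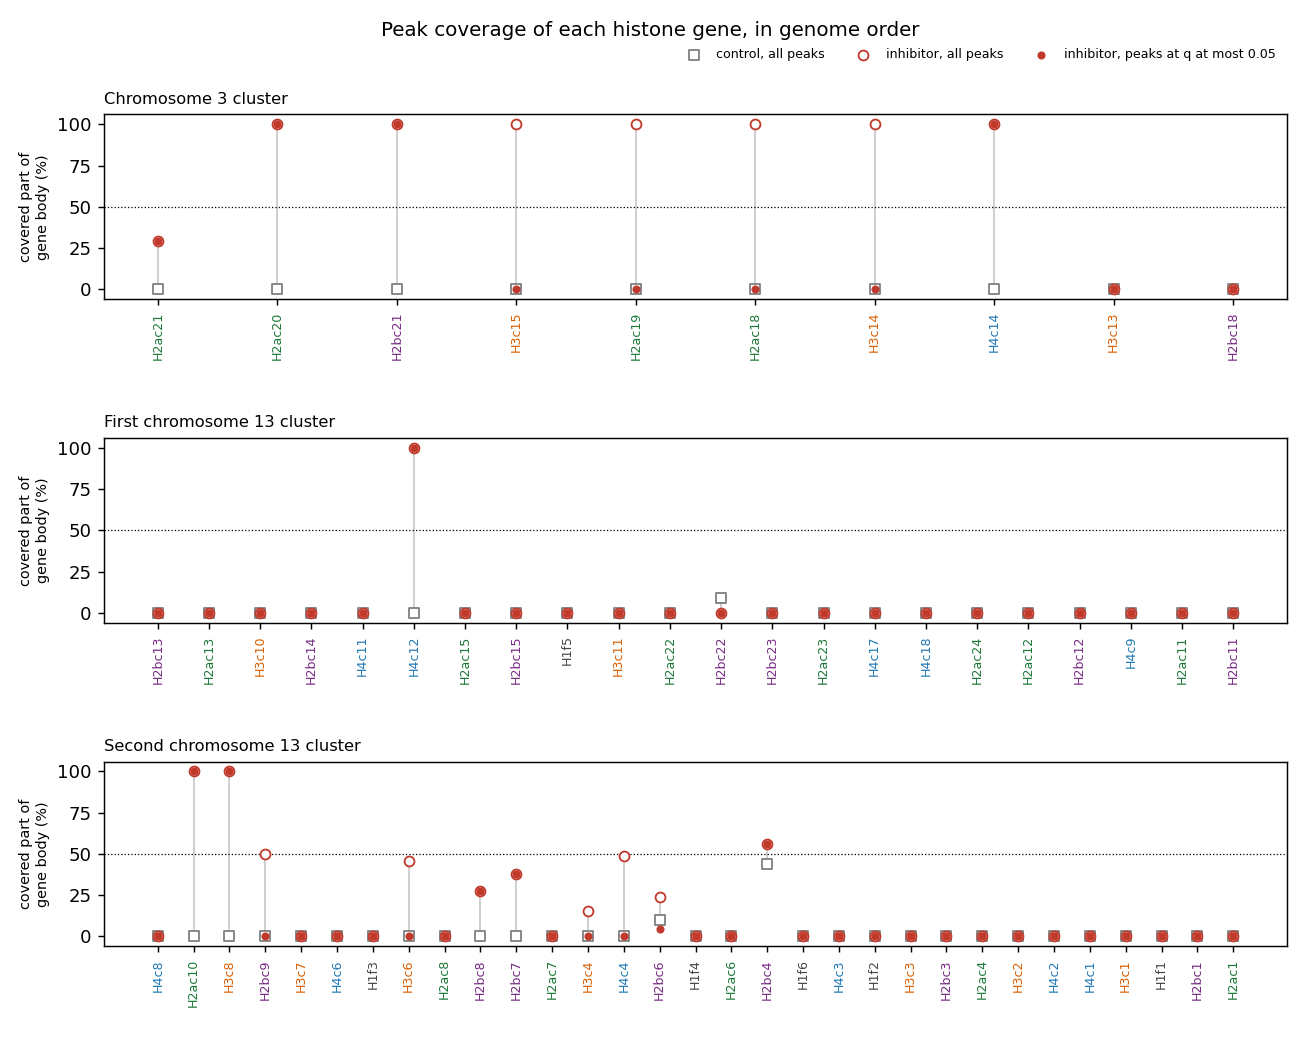
Covered part of the gene body (percent, y axis) of each of the 63 histone genes, in genome order within the 3 clusters (x axis, symbols coloured by histone class). Squares are the control list, open circles the inhibitor list with all peaks and small filled circles the inhibitor list at q of at most 0.05; the dotted line is the 50% threshold. All squares lie below the line, and 7 of the 11 open circles above it are on chromosome 3.

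The chromosome 3 cluster held most of the marked members, 7 of 11. Inhibitor peaks covered 100% of 7 of its 10 members, and control peaks marked 0, where they marked 26.1% and 5.47% of all coding genes. Of the cluster's length 46.7% lay under inhibitor peaks and 2.94% under control peaks, while 7.63% and 11.2% of the whole chromosome did. Over member bodies alone the inhibitor value was 82.2% and the control value 0%. At q of at most 0.05, inhibitor peaks covered 19.7% of the cluster, 49.1% of member bodies and 5.14% of the chromosome. They marked 3 of the 10 members at that q, and 19.6% of all coding genes. The 2 control peaks were 538 and 940 bp wide, had q of 1, and touched no histone gene.

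The neighbouring genes H2ac20 and H2bc21 (96220413 to 96220880 and 96221072 to 96223738), which encode an H2A and an H2B, were covered over 100% by inhibitor and 0% by control peaks. Both genes and the 191 bp between them lay under an inhibitor peak of 4.37 kb (96220218 to 96224583) with fold enrichment 1.98 and q of 0.0239. The peak reached only the last 29.1% of H2ac21, the neighbouring H2A gene. H4c14, the H4 gene of the cluster (96262934 to 96263317), was covered over 100% and 0% in the same order, by a 5.55 kb peak with fold 1.99 and q of 0.0196. That peak ended 622 bp before H3c13, which, like the neighbouring H2B gene H2bc18, had no covered base in either list.

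The 4 genes in the middle of the cluster form a mirror image, with H3c15 and H2ac19 on the minus strand and H2ac18 and H3c14 on the plus strand. All 4 were covered over 100% by inhibitor and 0% by control peaks. They lay under 1 inhibitor peak of 11.8 kb (96236800 to 96248564), the widest in the 3 clusters, with fold 1.88 but q of 0.09, so none of the 4 genes was covered at q of at most 0.05. The promoter windows of H3c14 and H3c15 (250 bases before to 50 after the start) were 89.7% identical and those of H2ac18 and H2ac19 72.7%. Outside the cluster, Fcgr1, an Fc receptor gene 12.7 kb beyond it, was covered over 13.7% by control and 0% by inhibitor peaks. Bola1, 21.4 kb before it, was covered over 0% and 52.1%.

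**Figure D2:**
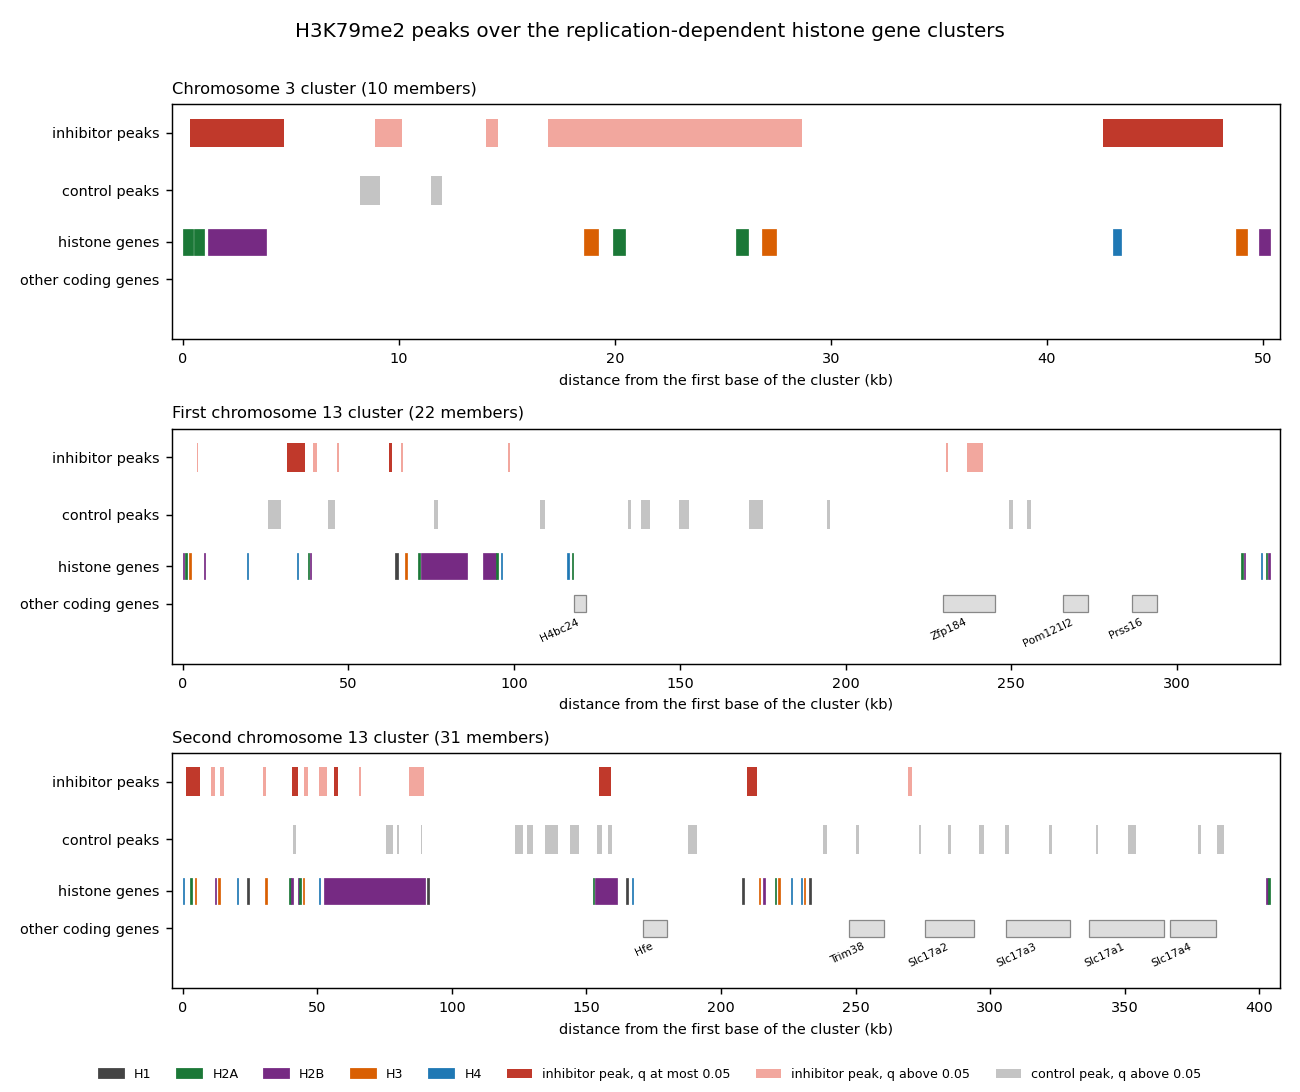
Peaks of both lists over the 3 clusters, drawn to scale against the distance from the first base of each cluster (kb). Coloured boxes are the histone genes by class, grey outlined boxes the other coding genes inside the cluster, and bars the peaks (pale where q is above 0.05). All 35 control bars are pale, and 9 of 27 inhibitor bars are dark.

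The first chromosome 13 cluster held 11 control and 9 inhibitor peaks. Of its 22 members 1 (4.55%) was marked in the inhibitor list, the H4 gene H4c12, and 0 in the control list. Inhibitor peaks marked 26.1% of all coding genes and 2.85% of those of at most 1 kb, and control peaks 5.47% and 7.1%. H4c12 (21750145 to 21750553) was covered over 100% by inhibitor and 0% by control peaks, by a 5.38 kb peak (21747262 to 21752644) with fold 2.22 and q of 0.00404. Of the remaining 21 members none had a covered base in the inhibitor list, including the members at the cluster's ends, the H2B genes H2bc13 and H2bc11. H2bc22, an H2B gene with a model of 14079 bp, was covered over 8.99% by 1 control peak that reached neither gene end, and over 0% by inhibitor peaks. H2bc23, the next longest model of the cluster (3788 bp), had no covered base in either list. Another inhibitor peak at q of at most 0.05 (759 bp wide, fold 2.15, q of 0.0164) lay 1027 bp beyond the end of H1f5, a linker histone gene that was itself uncovered. Control peaks covered 6.72% of the whole cluster and inhibitor peaks 4.54%, against 13.2% and 9.55% of chromosome 13.

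H4c12 has a close copy in H4c11, in the same cluster, and the promoter windows of the 2 genes were 87.0% identical. H4c11 (21735034 to 21735456) had no covered base in either list, and its nearest inhibitor peak lay 11806 bp away. The same 120 bases of each gene, shown because these genes are so alike and differ in coverage, are given from RefSeq's promoter table (GRCm38.p6), 5′ to 3′, with the match to the TATA box motif TATAAA in capitals:
H4c12 (chr13:21750554-21750673, minus strand): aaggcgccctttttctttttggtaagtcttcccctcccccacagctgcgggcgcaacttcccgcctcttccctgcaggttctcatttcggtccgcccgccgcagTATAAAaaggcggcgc
H4c11 (chr13:21734928-21735047, plus strand): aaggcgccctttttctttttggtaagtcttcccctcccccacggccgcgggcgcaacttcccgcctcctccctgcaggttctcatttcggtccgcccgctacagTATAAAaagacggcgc
Both stretches hold TATAAA at the same place, and 6 of the 120 bases differ between them. The first base of TATAAA lies 16 bases before the annotated start of H4c12 and 2 bases before that of H4c11, so the annotated starts of these copies are offset. Whether reads there were unique to 1 gene was not tested. Another pair of H4 genes, H4c17 and H4c18, was alike over 99.0% of the promoter window, and neither had a covered base in either list.

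In the second chromosome 13 cluster inhibitor peaks marked 3 of 31 members (9.68%) and control peaks 0. Over all coding genes the marked shares were 26.1% and 5.47%, and over those of at most 1 kb 2.85% and 7.1%. H2ac10 (an H2A gene, 23533875 to 23534378) and H3c8 (an H3 gene, 23535418 to 23535909) were covered over 100% by inhibitor and 0% by control peaks, both by 1 peak of 5.05 kb with fold 1.88 and q of 0.0437, just inside the 0.05 limit. H2bc4, an H2B gene whose model spans 8282 bp (23684199 to 23692480), was covered over 56.1% by an inhibitor peak of 4645 bp with fold 2.29 and q of 0.00116. Another 2 peaks, from the control list and with q of 1, covered 43.9% of it, a difference of 12.2 points. H2bc6, an H2B gene with a model of 37455 bp, was covered over 10.1% by control and 24.1% by inhibitor peaks. H4c8, the first member of the cluster, and the last members H2bc1 and H2ac1, which encode testis histones, had no covered base in either list. Control peaks covered 10.1% of the cluster and inhibitor peaks 8.34%. Over member bodies the values were 12.1% and 25.8%, and over the sequence between them 9.75% and 5.19%. The body values rest mainly on the 2 long models. H2bc6 and H2bc4 held all control-covered member bases (3800 and 3638 bp) and 9029 and 4645 bp of the inhibitor-covered ones. These pooled values thus do not describe the short members.

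The control list held 22 peaks in this cluster, of which 5 touched a histone gene, all within the long models of H2bc6 and H2bc4. The inhibitor list held 13 peaks, of which 11 touched a histone gene. Near the cluster's end, Slc17a1, Slc17a2, Slc17a3 and Slc17a4, relatives of sodium phosphate transporters, were covered over 5.87% to 12.3% by control peaks with q above 0.05 and over 0% by inhibitor peaks. Hfe, a regulator of iron uptake that lies among the histone genes, had no covered base in either list.

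Among the 3 clusters together, the 35 control peaks had a median width of 1360 bp and a median fold of 1.62 (range 1.41 to 1.96), with the lowest q at 0.733. The 27 inhibitor peaks had a median width of 1446 bp and a median fold of 1.65 (up to 2.34). Fold is the authors' ratio to local background averaged over each peak, and it is not compared between lists. The lowest q, 1.02e-04, at the peak between H2bc8 and H2bc7, stood at rank 3278 of 35010 inhibitor peaks. The other 8 cluster peaks at q of at most 0.05 stood between ranks 4243 and 6409 of the 6527 peaks at that q.

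By histone class, no H1 gene of 6 had a covered base in either list. Control peaks touched 55.3% of all coding genes and 12.1% of those of at most 1 kb, and inhibitor peaks 51.4% and 3.99%. The H1 genes were H1f1 to H1f5, the linker histones of somatic cells, and H1f6, the testis linker histone. Inhibitor peaks marked 4 of 17 H2A genes, of 16 H2B genes 2, of 12 H3 genes 3 and of 12 H4 genes 2. These are 23.5%, 12.5%, 25% and 16.7%, where 26.1% of all coding genes and 2.85% of those of at most 1 kb were marked. With the q filter the numbers were 2, 2, 1 and 2, against 19.6% of all coding genes. The control list marked 0 in each class and 5.47% of all coding genes. With so few genes per class, 0 of 6 H1 genes allows a marked share of up to 50%, and differences between classes were not tested.

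Inhibitor peaks covered the 1 kb after the gene in more short histone genes than they covered the 1 kb before it; the difference was not tested. Of the 55 short members whose strand is known, 15 had at least 50% of the 1 kb after the gene covered, 8 had their body and 9 had the 1 kb before the start covered to that extent. At q of at most 0.05 the numbers were 7, 4 and 5. In the control list they were 1, 0 and 0. Of 1298 other short coding genes, inhibitor peaks covered 33 after the gene, 31 over the body and 29 before the start, and control peaks 129, 102 and 135. With the q filter the inhibitor numbers for these 1298 genes were 26, 26 and 25. Since members stand close together, the sequence after one gene can belong to the next, and the windows are not independent.

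**Figure D3:**
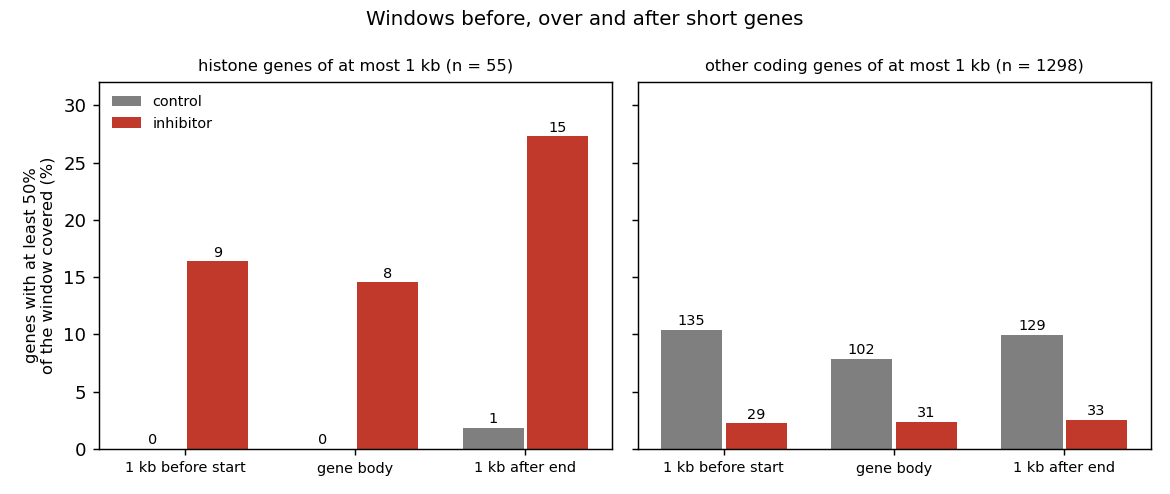
Share of genes (percent, y axis) with at least 50% of a window covered, for the 1 kb before the start, the gene body and the 1 kb after the end; numbers above the bars are genes, grey is control and red inhibitor. Among 55 short histone genes the inhibitor bar is tallest after the gene (15 genes), whereas among 1298 other short coding genes the inhibitor bars are close to level.

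Genes covered only in part are among the same short members under the same peaks, so they restate the windows and are not separate support. Inhibitor peaks covered 7 short members of known strand only in part, and in all 7 the peak held the last base of the gene and not the first. H2bc9 (H2B) was covered over its last 49.8%, H4c4 (H4) over its last 48.5%, H3c6 (H3) over its last 46.0%, H2bc7 (H2B) over its last 37.9%, H2ac21 (H2A) over its last 29.1%, H2bc8 (H2B) over its last 27.6% and H3c4 (H3) over its last 15.7%. None of these 7 had a covered base in the control list. H3c7, an H3 gene with no strand in the table, was covered over 0.332%. The 7 genes lay under 6 peaks, because the tail-to-tail pair H2bc8 and H2bc7 shared the peak between their ends. Of the 6 peaks, only those at H2bc8 with H2bc7 and at H2ac21 passed q of 0.05. Among other short coding genes, inhibitor peaks covered 13 in part, with only the last base in 6, only the first base in 5 and neither in 2. In the control list, of 100 such genes 49 had only the last base covered and 48 only the first. Whether the placement in histone genes differs from these was not tested.

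Around the gene start, the share of 58 histone genes under an inhibitor peak was lowest close to the start, 13.8% (8 genes), and highest 1.4 kb after it, 34.5%. The members of known start under a control peak were 0 at the start, and at most 5.17% anywhere within 3 kb. Over the other 17434 coding genes with a known start, the inhibitor share was 29.2% at the start and peaked at 41.4%, 1.1 kb after it, and the control share was 7.40% at the start with a peak of 21.8%, 1.5 kb after it. Over 1298 other coding genes of at most 1 kb, the inhibitor share was 2.47% at the start and at most 2.85%, and the control share was 8.55% at the start and at most 12.9%. At the start, the members' inhibitor share was thus below that of all other coding genes and above that of the short ones; neither difference was tested.

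**Figure D4:**
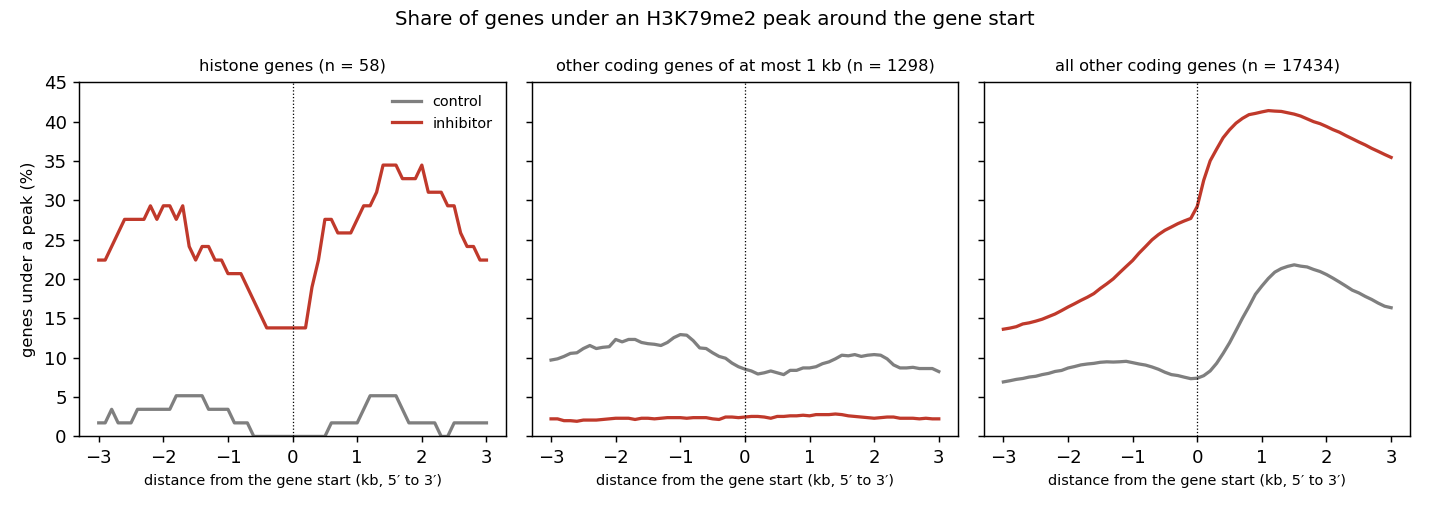
Share of genes under a peak (percent, y axis) by distance from the gene start (kb, in steps of 100 bp) for 58 histone genes, 1298 other coding genes of at most 1 kb and all 17434 other coding genes with a known start; grey is control and red inhibitor. The inhibitor line of the histone genes is at its lowest, 13.8%, near the start, and the control line there is 0%.

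Many H2A and H2B genes stand head to head and share the sequence between their starts. Of 13 neighbouring pairs less than 1 kb apart, with the left gene on the minus strand and the right one on the plus strand or, in 4 pairs, without a strand in the table, 1 had any of its spacer under a peak, namely H2ac20 with H2bc21 (100% in the inhibitor list, 0% in the control list). The strongest inhibitor peak of the clusters, 2.19 kb wide with fold 2.34, lay between 2 other such pairs. It ran from within H2bc8 to within H2bc7 (23571736 to 23573929) and left uncovered both spacers and both partner genes, H2ac8 and H2ac7, which lay 516 and 452 bp from it. A weak control peak (1136 bp, fold 1.43, q of 0.998) lay inside the same stretch and touched neither gene. The covered spacer and the 2 uncovered ones are shown for comparison from the same RefSeq table, 5′ to 3′ on the strand of the first-named gene, with matches on either strand in capitals. The motifs were TATAAA, the box named CCAAT, and the octamer ATTTGCAT, known from H2B promoters:
H2ac20 to H2bc21, covered (chr3:96220881-96221071, minus strand): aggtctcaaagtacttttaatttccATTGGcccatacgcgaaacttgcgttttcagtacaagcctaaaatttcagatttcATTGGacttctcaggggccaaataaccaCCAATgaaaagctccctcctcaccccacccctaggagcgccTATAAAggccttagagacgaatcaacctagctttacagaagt
H2ac8 to H2bc8, uncovered (chr13:23571221-23571399, minus strand): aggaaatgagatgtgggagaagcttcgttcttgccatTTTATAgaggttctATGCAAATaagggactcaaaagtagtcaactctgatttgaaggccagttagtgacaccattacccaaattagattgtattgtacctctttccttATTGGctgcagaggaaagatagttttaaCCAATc
H2bc7 to H2ac7, uncovered (chr13:23574208-23574380, minus strand): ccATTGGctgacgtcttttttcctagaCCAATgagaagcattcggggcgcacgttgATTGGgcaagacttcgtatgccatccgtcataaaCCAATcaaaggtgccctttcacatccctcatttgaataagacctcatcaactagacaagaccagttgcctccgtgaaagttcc
All 3 spacers hold CCAAT matches on both strands. TATAAA is absent from the last of them, and ATTTGCAT is found only in the spacer of H2ac8 and H2bc8, on the other strand.

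Over the 58 promoter windows of members in the RefSeq table, searched on both strands, CCAAT was found in all 47 windows of H1, H2A, H2B and H3 genes and in 3 of 11 H4 windows. That made 86.2% of members, against 37.4% of all 32851 windows of the same length. TATAAA was found in 58.6% of members and 13.6% of all windows. ATTTGCAT was found in 6 of 17 H2A and 6 of 14 H2B windows and in 1.74% of all windows. AAACACA, the AC box known from H1 promoters, was found in 5 of 6 H1 windows and in 7.18% of all windows. These are matches of letters and were not related to coverage.

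The histone genes that the symbol rule left out were H2aw and H2bu2 in the chromosome 11 cluster, H3f4 beside them, H4bc24 on chromosome 13 and H4f16 on chromosome 6. H2aw, an H2A gene (58954685 to 58955192), was covered over 100% in the inhibitor list, at q of at most 0.05 as well, and 0% in the control list. The other 4 had no covered base in either list.

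Histone genes that are also expressed outside S phase were set beside the members. Control peaks marked 6 of 11 and inhibitor peaks 8, where they marked 5.47% and 26.1% of all coding genes. With the q filter the numbers were 2 and 8, against 1.33% and 19.6% of all coding genes. The median covered percents of the 11 genes were 57.4% and 98.4%. H3f3b, which encodes H3.3, was covered over 85.8% by control and 82.7% by inhibitor peaks, and H3f3a, for the same protein, over 57.4% and 98.4%. Cenpa, the centromeric H3, was covered over 43.1% and 100%, and Macroh2a1, a large H2A variant, over 38.4% and 89.7%. The linker histone genes H1f0 and H1f10, like the H1 members, had no covered base in either list. The gene models of the 11 genes reach 62005 bp (Macroh2a1), with 2293 bp for H1f0 and 1062 bp for H1f10, against the members' median of 492 bp. The difference from the members was not tested.

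Of 23 genes that switch on the histone genes or process their mRNA, control peaks marked 2 and inhibitor peaks 16, where they marked 5.47% and 26.1% of all coding genes. With the q filter they marked 0 and 12, where they marked 1.33% and 19.6% of all coding genes. The inhibitor peaks were ahead by 25 points or more at 18 of the 23 (30.1% of all coding genes) and the control peaks at 0 (3.07%), with a median difference of 44.6 points, against 0 over all coding genes. Npat, the organiser of histone locus bodies, was covered over 24.1% by control and 85.8% by inhibitor peaks. With the q filter its values were 0% and 48.1%, so it was not marked at that q. Hinfp, an activator of H4 genes, was covered over 6.70% and 100%, and Slbp, the stem-loop binding protein, over 28.8% and 100%. Casp8ap2, another component of these bodies, was covered over 38.3% and 94.1%. The cyclin gene Ccne2, which overlaps another coding gene, was covered over 14.7% and 100%, and Ncbp2, a subunit of the nuclear cap-binding complex, was covered over 16.3% and 100%. Of 20 histone chaperone genes, 3 and 15 were marked (5.47% and 26.1% of all coding genes), and 1 and 11 with the q filter (1.33% and 19.6%). The inhibitor peaks were ahead by that much at 19 of the 20 (30.1% of all coding genes) and the control peaks at 0 (3.07%). Daxx, a chaperone of H3.3, was covered over 0% and 100%, and Asf1b over 16.5% and 88.9%. Chaf1a, for a subunit of the replication-coupled chaperone CAF-1, was covered over 12.9% and 99.1%, and it overlaps another coding gene.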

How the data were processed

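H3K79me2 ChIP-seq in 2 libraries, 1 per condition, is represented by 2 lists of broad peaks, called library by library, per the peak names in the deposited lists. BWA, MACS2 2.1.0 and mm10 are named, without roles, per the submitters' processing notes; caller options and use of the inputs are not stated. In MACS2's column order, each deposited peak carries the authors' fold enrichment (a ratio to local background), −log10 p and −log10 q; the deposited score is the whole part of 10 times −log10 q and was not used. The lowest −log10 p was 1.0, so weak peaks are included, and a filter at q of at most 0.05 is shown beside all peaks. Read depth is unknown.

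Touching peaks were merged and intersected with RefSeq gene bodies. Scripts ran in Python 3.11.15 with pandas 2.3.3, numpy 2.4.6 and scipy 1.17.1. Starts and strands came from the RefSeq promoter table of GRCm38.p6, which matched 58 members and lacked 5. No p-value was computed, because a condition has 1 library. Members and lists were chosen with earlier results of these data known. Any member could be named; the other genes named were 6 fixed ones, up to 3 per list and direction with the largest difference, and genes within or next to a cluster. The class of genes of at most 1 kb, the windows and the profiles were chosen after the peaks were seen. Coverage was tested on simulated data with 200 genes per list, and 0 differed from a count base by base. Alternatives varied the peak filter, merging, window, threshold, overlapping genes and cluster gap.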

Additional observations from a re-analysis of the deposited data

How the results depend on the processing

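Most values depended on how weak a peak may be. Among peaks filtered at −log10 q 5, and separately at fold 3, no histone gene and no part of a cluster was covered in either list (0 marked, 0 gained, 0% of the clusters). At q of at most 0.05, 7 members were marked and 10 gained at least 25 points in the inhibitor list, in place of 11 and 16, and cluster coverage was 0% in the control and 4.28% in the inhibitor list, in place of 8.23% and 9.21%. If any covered base was enough, 3 and 20 members were marked. When only members up to 50 kb apart shared a cluster, giving 6 clusters without the stretches between them, coverage was 6.26% and 18.6%. The restricted control list, merging within 1 kb, flanks of 1 kb, a threshold of 80% and removal of overlapping genes left the counts within 1.5 times; so did 3 alternatives added later (genes with an older histone symbol, models of at most 1 kb, 1 kb around the start). No member's difference changed sign under any of them. Members are short, so 1 weak peak can decide a gene, and the depth that limits such peaks is unknown. No paired analysis was possible because each condition has 1 library.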

Other observations

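The histone clusters also hold non-coding genes. The first chromosome 13 cluster contains 31 tRNA genes, which deliver amino acids to the ribosome. Of these, 2 were covered in the control list, n-TIaat11 and n-TTagt4, both over 100%, and 0 in the inhibitor list. Across the whole gene table, 13 of 408 tRNA genes were marked in each list. The long non-coding RNA gene Gm11337 in the second chromosome 13 cluster was covered over 0.742% by control and 12.6% by inhibitor peaks. Zfp184, a zinc finger gene inside the first chromosome 13 cluster, was covered over 0% and 36.0% by peaks with q above 0.05, while its neighbours Pom121l2 and Prss16, a thymus protease gene, had no covered base in either list.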
